A study of Mus musculus with 6 samples.

Results

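The cholesterol and fatty acid synthesis genes described here are 34 genes of lipid supply, taken by gene symbol from the 52740 gene rows of the deposited count table. They comprise 5 regulators, 19 genes of the sterol branch and 10 genes of the fatty acid branch. Each of the 34 symbols matched 1 row. The rule names genes and uses no measured value, but it was written with earlier results of these data known. The cells were C2C12, an established mouse myoblast line from muscle, grown in medium with 10% fetal bovine serum. A group of 3 libraries received a random control siRNA (siCTRL) and another group of 3 an siRNA against Cox7a2l (siCOX7A2L), both delivered with RNAiMAX, a lipid transfection reagent that all 6 libraries share. Ribosomal RNA was removed from the total RNA before sequencing. The labels give neither the time after transfection nor whether replicates were grown separately. The p-values below therefore describe the spread among these 6 libraries, part or all of which may be technical. Unless stated otherwise, it is the spread left after differences between replicate numbers are taken out.

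Cholesterol and fatty acids are both built from acetyl-CoA in the cytosol. The SREBP transcription factors, encoded by Srebf1 and Srebf2, wait as inactive precursors in the endoplasmic reticulum, where Scap escorts them to the Golgi when sterols are scarce and the Insig proteins hold them back when sterols are plentiful. Once cleaved there, they enter the nucleus and activate genes of both branches, with SREBP-2 acting mainly on the sterol branch. In muscle cells these routes supply membrane lipids. The target of the siRNA, Cox7a2l, encodes a mitochondrial factor needed to assemble supercomplexes of respiratory complexes III and IV, and the series' title places the study in myoblast differentiation.

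To show what lies in front of these genes, RefSeq promoter windows on GRCm38.p6 were searched in the 250 bases before the annotated start. Windows were found for 27 of the 34 genes (35 windows, since some genes have several starts), and not for Sqle, Stard4, Fdps, Scd1, Fads1, Fdft1 and Scd2. The windows below are those of Hmgcs1, the 1 member with a match to the sterol regulatory element searched, of Insig1, the regulator with the widest spread between pairs, of Mvk and Hsd17b7, a pair of sterol genes without overlap between the groups, and of Fasn, for the fatty acid branch. They lie at chr13:119690101-119690350, plus strand (Hmgcs1), chr5:28071162-28071411, plus strand (Insig1), chr5:114444019-114444268, plus strand (Mvk), chr1:169969206-169969455, minus strand (Hsd17b7) and chr11:120824548-120824797, minus strand (Fasn). Each is written 5′ to 3′ along the gene's strand. Capitals mark TCACNCCAC (a sterol regulatory element), CCAAT (the box bound by NF-Y), GGGCGG (the GC box bound by Sp1) and CACGTG (an E-box), each on either strand, so that ATTGG is a CCAAT box read in reverse.
Hmgcs1: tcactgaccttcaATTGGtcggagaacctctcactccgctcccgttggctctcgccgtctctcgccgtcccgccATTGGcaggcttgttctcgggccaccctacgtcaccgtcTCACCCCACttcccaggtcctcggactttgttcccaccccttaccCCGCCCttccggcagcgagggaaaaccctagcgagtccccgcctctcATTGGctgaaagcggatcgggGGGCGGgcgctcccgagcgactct
Insig1: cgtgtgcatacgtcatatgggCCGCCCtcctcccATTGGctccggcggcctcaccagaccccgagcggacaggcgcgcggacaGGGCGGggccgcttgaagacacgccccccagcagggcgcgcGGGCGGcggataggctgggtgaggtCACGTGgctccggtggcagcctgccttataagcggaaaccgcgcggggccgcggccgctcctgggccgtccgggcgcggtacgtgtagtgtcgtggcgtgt
Mvk: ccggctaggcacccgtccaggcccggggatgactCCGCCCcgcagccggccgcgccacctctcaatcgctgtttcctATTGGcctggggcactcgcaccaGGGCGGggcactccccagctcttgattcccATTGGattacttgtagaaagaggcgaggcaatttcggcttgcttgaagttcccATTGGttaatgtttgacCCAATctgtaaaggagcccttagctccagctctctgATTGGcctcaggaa
Hsd17b7: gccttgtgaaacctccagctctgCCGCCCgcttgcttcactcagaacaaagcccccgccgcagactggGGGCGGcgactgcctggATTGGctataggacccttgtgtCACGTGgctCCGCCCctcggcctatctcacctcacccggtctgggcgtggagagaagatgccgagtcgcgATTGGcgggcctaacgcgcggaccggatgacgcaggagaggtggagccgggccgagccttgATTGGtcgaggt
Fasn: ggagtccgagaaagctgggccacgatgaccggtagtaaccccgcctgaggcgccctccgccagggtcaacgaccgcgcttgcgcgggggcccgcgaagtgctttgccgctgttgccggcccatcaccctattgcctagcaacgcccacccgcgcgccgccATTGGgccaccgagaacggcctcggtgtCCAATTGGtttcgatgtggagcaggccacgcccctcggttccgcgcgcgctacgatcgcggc

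The Hmgcs1 window held the sterol element TCACCCCAC between CCAAT boxes, and the Fasn window held a stretch where a forward and a reverse CCAAT box overlap. CCAAT occurred in 22 of the 35 members' windows (62.9%), against 33.8% of all 32851 windows of the same length. It was in 14 of 18 windows of the sterol branch (77.8%), 3 of 7 of the fatty acid branch (42.9%) and 5 of 10 of the regulators (50%). GGGCGG occurred in 25 of 35 (71.4% against 32.7%) and CACGTG in 6 of 35 (17.1% against 6.02%). TCACNCCAC occurred in 1 of 35 (2.86% against 1.05%). These are matches of letters and do not show that a factor binds. The windows of all genes were not matched to the members for expression or base composition. Several windows of a gene, some overlapping, were counted apart. The percentages therefore do not show that these letters are particular to lipid genes.

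Depth was 9890218 estimated counts in siCOX7A2L replicate 3, the smallest library, and up to 17077826 in the others. Cox7a2l was at 58.0, 59.5 and 58.9 CPM (counts scaled to library size with TMM factors) in siCTRL replicates 1, 2 and 3 and at 6.72, 5.90 and 3.59 CPM in siCOX7A2L (log2 fold change -3.44, edgeR adjusted p = 1.9e-05) and was thus lower in every library labelled with its siRNA. The replicate 3 libraries of both groups stood apart from the other 4. As the rule for these genes names it, the edgeR test took the replicate number as a block. It thus set each siCOX7A2L library against its siCTRL counterpart. Of 15022 genes tested, 109 passed at an adjusted p of 0.05 (0.726%). Myod1, a myoblast transcription factor, was at 118 to 161 CPM, and Des, the muscle filament desmin, at 728 to 1892 CPM. Summed over 8 myoblast markers, levels were 1458 to 2032 CPM in siCTRL and 1343 to 3071 CPM in siCOX7A2L. Of these 8, 0 were called, with 6 log2 fold changes positive and 2 negative, from -1.03 to 0.65. At an unadjusted p under 0.05 there were 2 (25%), against 17.7% of all genes, with 1 in each direction. Of 8 adipocyte markers 6 stayed below 1 CPM in every library, with Adipoq, Plin1 and Fabp4 at 0.337 CPM or less, and Alb, the hepatocyte marker, was at 0 in all 6. Summed adipocyte markers were 32.4 to 36.3 CPM in siCTRL and 25.9 to 43.7 CPM in siCOX7A2L, nearly all from 2 markers, Cebpa and Pparg, that were tested and not called. The fibroblast marker Dcn was called higher (edgeR adjusted p = 0.0419), and the summed list was 17.8 to 24.8 CPM in siCTRL and 26.4 to 58.5 CPM in siCOX7A2L; its part in the results below was not tested. In bulk RNA, fewer cells of a type and less RNA per cell cannot be told apart.

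None of the 34 lipid synthesis genes changed past the threshold after Cox7a2l siRNA. All 34 passed the filter on low counts, and edgeR called 0 of them over all genes, against 0.726% of all genes tested. The smallest adjusted p was 0.131, for Hsd17b7. At an unadjusted p under 0.05 there were 7 (20.6%), against 17.7% of all genes, which is near the background. They were Mvk, Pmvk, Fdps, Tm7sf2, Hsd17b7 and Acss2, with higher values after the siRNA, and Ebp, with lower ones. By branch they were 6 of 19 sterol genes (31.6%), 1 of 10 fatty acid genes (10%) and 0 of 5 regulators. DESeq2 with the block and limma on TPM values also called 0, with 3 and 1 members at an unadjusted p under 0.05, against 7.39% and 10.6% of all genes in those fits. The exception was the edgeR fit without pair 2, which called Insig1 and Acat2 among 1210 genes of 15384. Without the block edgeR called 2 genes in all and 0 members. The median log2 fold change over the 34 genes was 0.01, the same to 2 decimals as over all genes tested.

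What differed was the direction within the branches. In the sterol branch 15 of 19 log2 fold changes were positive (median 0.20), while in the fatty acid branch 3 of 10 were (median -0.02), and among the regulators 2 of 5 (median -0.11). Over all genes tested 51.1% were positive, with a median of 0.01. The 15 other genes of sterol and isoprenoid synthesis described below went the other way, with 4 positive and a median of -0.24. The direction was thus that of the 19 listed genes and not of sterol synthesis genes at large. Measured in TPM (the deposited values scaled to transcript length and depth), the sterol median turned to -0.07 with 7 of 19 positive, while the median of all genes was at -0.22, so the sterol branch was 0.15 above all genes there and 0.20 above them in CPM. Members are not replicates of a condition, so these medians are descriptions with no test.

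**Figure D1:**
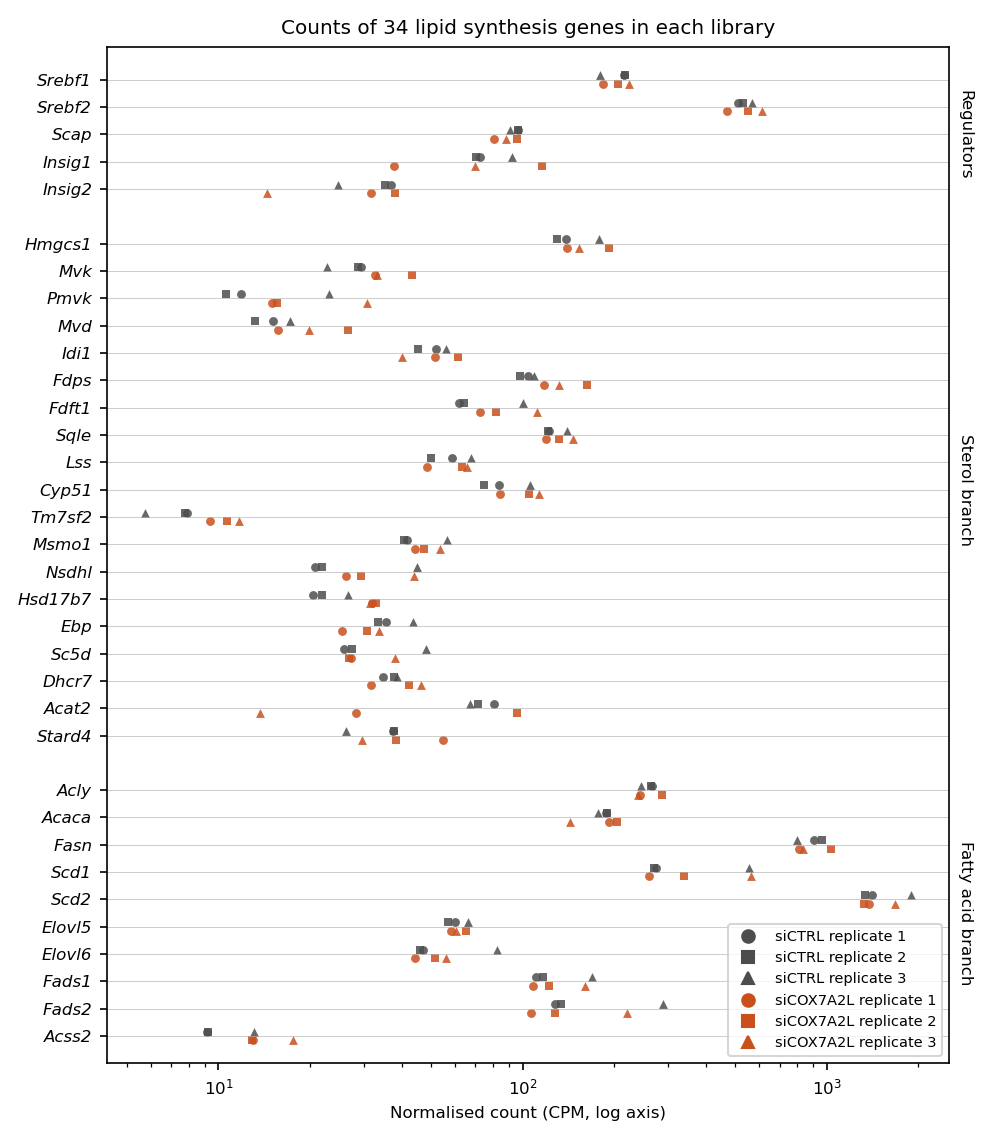
Normalised counts (CPM, log axis) of the 34 genes in each of the 6 libraries, grouped by branch, with siCTRL in grey, siCOX7A2L in orange and replicates 1, 2 and 3 as circles, squares and triangles. Mvk, Fdps, Tm7sf2 and Hsd17b7 are the 4 genes with every siCOX7A2L point to the right of every siCTRL point. Rows are for comparing libraries within a gene, since CPM does not account for gene length.

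Levels of different genes can be compared per length. In the siCTRL libraries Scd2, a stearoyl-CoA desaturase, had the highest mean TPM of the 34, at 302 ± 101 (SD, n = 3, as for the next values), above Srebf2 at 124 ± 38.3, Scd1 at 122 ± 51.6 and Fasn at 108 ± 4.76. Of the sterol branch Fdps stood highest, at 80.5 ± 7.59 TPM. The lowest were Tm7sf2 at 5.28 ± 1.58 TPM and Acss2 at 3.68 ± 0.667 TPM. Neighbours in the order had separate ranges over the 3 libraries only between Scd2 and Srebf2, Fasn and Fdps, Srebf1 and Acly, and Cyp51 and Acat2; the ranges of all other neighbours overlapped. One gene row without a symbol took 36.9% to 53.6% of TPM, so TPM values of other genes depend on it.

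Among the regulators the messages of both SREBP factors were near their control levels. Srebf1 was at 216, 218 and 179 CPM in siCTRL replicates 1, 2 and 3 and at 184, 207 and 224 CPM in siCOX7A2L. Srebf2 was at 512, 532 and 568 CPM and at 469, 549 and 611 CPM. The groups overlapped for both, and their log2 fold changes were each 0.01, with 95% intervals of -0.29 to 0.30 for Srebf1 and -0.25 to 0.27 for Srebf2. The signs of both turned negative on TPM (-0.36 and -0.16) and with library size alone (-0.04 for each). The median of all genes was also negative in those fits, at -0.22 on TPM and -0.04 with library size alone. Scap, the escort protein, was at 96.8, 96.8 and 90.8 CPM against 80.7, 95.8 and 88.0 CPM, lower in all 3 pairs (log2 fold change -0.11, edgeR adjusted p = 0.700).

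Insig1 (ENSMUSG00000045294.12), the sterol-responsive retention protein, varied most of the regulators. It was at 72.4, 70.2 and 92.3 CPM in siCTRL and at 37.7, 115.7 and 69.8 CPM in siCOX7A2L. Its siCOX7A2L libraries held both the lowest and the highest value of the 6, and the pairs went in both directions, with log2 differences of -0.94, 0.72 and -0.40. The fit gave -0.20 ± 0.33 (standard error, SE; edgeR adjusted p = 0.806). Only 0.684% of 9654 genes with a mean of at least 10 CPM had a standard error that large. Without pair 2 the log2 fold change was -0.68 and passed the threshold (edgeR adjusted p = 0.0109), and without pair 1 it was 0.16 (edgeR adjusted p = 0.850). Insig2, its paralog, was at 36.9, 35.4 and 24.8 CPM against 31.7, 38.1 and 14.5 CPM, with pair differences of -0.22, 0.11 and -0.77 (edgeR adjusted p = 0.454). For Insig2 siCOX7A2L replicate 3 was the lowest library and the groups overlapped.

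The route to sterols opens with Acat2 (ENSMUSG00000023832.15), the cytosolic thiolase that joins acetyl-CoA units, which had the largest log2 fold change of the 34 by size. It was at 80.3, 71.6 and 67.4 CPM in siCTRL and at 28.3, 96.1 and 13.7 CPM in siCOX7A2L. Replicates 1 and 3 of siCOX7A2L lay far below every control, while replicate 2 was the highest of the 6, so the groups overlapped. The pairs gave -1.50, 0.42 and -2.29, and the fit -1.08 with a standard error of 0.74 and an interval of -3.63 to 1.46 (edgeR adjusted p = 0.573). A standard error as large was reached by 0.207% of genes with at least 10 CPM, against a median of 0.15. Without pair 2 the log2 fold change was -1.88 and passed (edgeR adjusted p = 1.1e-16, in a fit with 1 residual degree of freedom per gene), and without pairs 1 and 3 in turn it was -0.86 and -0.51. The value is uncertain for a further reason: of its 31-base words, 43.7% also occur in its near copy Acat3, listed at 0.569 CPM or less in every library, and 13.2% in Tcp1, which overlaps it. Tcp1 was at 392, 379 and 273 CPM against 403, 322 and 215 CPM, and the strand setting of the counting is not given in the sources used here.

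**Figure D2:**
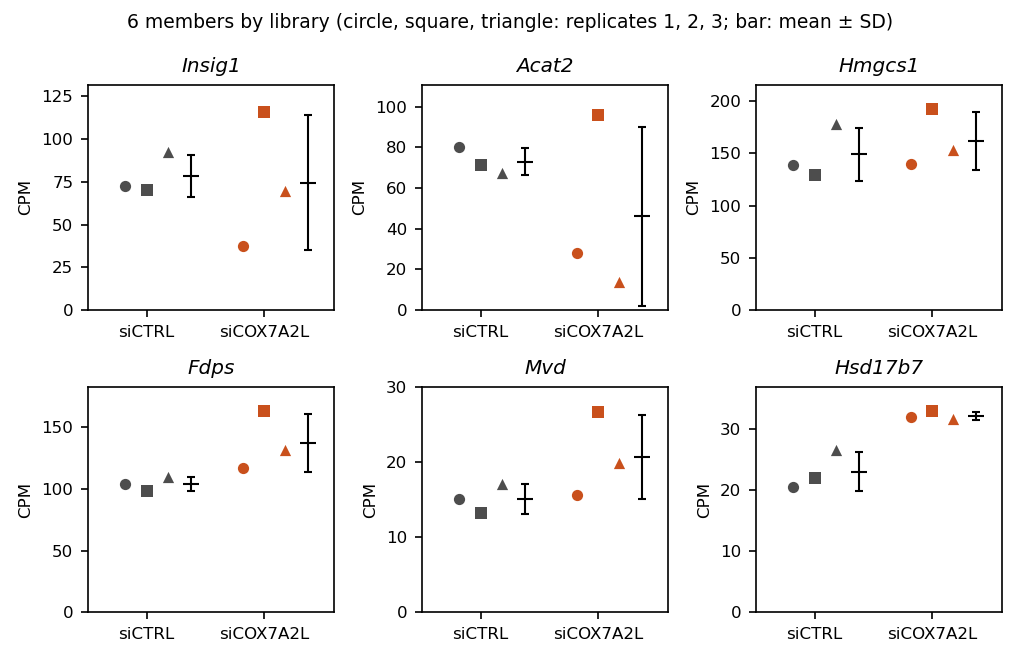
CPM of Insig1, Acat2, Hmgcs1, Fdps, Mvd and Hsd17b7 in each library (circles, squares and triangles for replicates 1, 2 and 3), with the mean and SD of each group of 3 as a bar. Replicate 2 is the highest siCOX7A2L library in all 6 panels, while in Insig1 and Acat2 replicates 1 and 3 lie below the controls. Each vertical axis starts at 0 and has its own scale.

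The enzymes from HMG-CoA to farnesyl diphosphate had mostly higher values after the siRNA. Hmgcs1, which makes HMG-CoA, was at 139, 129.8 and 178 CPM in siCTRL and at 139.9, 193 and 153 CPM in siCOX7A2L, with overlapping groups (log2 fold change 0.12, edgeR adjusted p = 0.735). Mvk, mevalonate kinase, was at 29.4, 28.8 and 22.8 CPM against 32.7, 43.3 and 33.2 CPM. Its 3 siCOX7A2L libraries all lay above the 3 controls, with a log2 fold change of 0.43 ± 0.15 (SE, edgeR adjusted p = 0.172). Pmvk, the next kinase, was at 11.8, 10.6 and 23.0 CPM against 15.0, 15.5 and 30.8 CPM. It was higher in each pair, by 0.34, 0.54 and 0.42, although the groups overlapped because both replicate 3 libraries were high (log2 fold change 0.44, edgeR adjusted p = 0.182).

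Mvd, which removes a carboxyl group to give isopentenyl diphosphate, was at 15.1, 13.2 and 17.2 CPM against 15.7, 26.7 and 19.9 CPM. Its pair 2 difference, 1.01, was far above those of pairs 1 and 3, 0.05 and 0.21 (edgeR adjusted p = 0.298). Idi1, the isomerase that follows, was at 52.1, 45.3 and 55.9 CPM against 51.5, 61.4 and 40.1 CPM, with pairs of -0.02, 0.44 and -0.48 and a log2 fold change of -0.02. Fdps, farnesyl diphosphate synthase, was at 104, 98.1 and 109 CPM against 117, 163 and 131 CPM. For Fdps the groups did not overlap, and the fit gave 0.39 ± 0.14 on the log2 scale (SE, edgeR adjusted p = 0.178). Several of these genes share words with other gene rows, 24.6% of those of Fdps with Gm43738 and 18.4% of those of Idi1 with Gm13502. Both of these rows were at 1.46 CPM or less in every library.

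Of the enzymes from squalene to lanosterol, Sqle and Lss lay close to the controls. Fdft1, squalene synthase, was at 62.0, 64.1 and 100.1 CPM in siCTRL and at 72.6, 81.9 and 112 CPM in siCOX7A2L, higher in each pair (log2 fold change 0.25, edgeR adjusted p = 0.323). Of its words 17.6% also occur in Ctsb, which was at 401 to 463 CPM. Sqle, squalene epoxidase, was at 122, 122 and 140.3 CPM against 119, 132 and 146 CPM, with a 95% interval of -0.21 to 0.30 around a log2 fold change of 0.05. Lss, lanosterol synthase, was at 58.8, 50.2 and 67.8 CPM against 48.5, 63.3 and 65.6 CPM, and its interval ran from -0.32 to 0.33. The groups overlapped for all 3 enzymes.

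The late enzymes, which turn lanosterol into cholesterol, went in both directions. Hsd17b7 (ENSMUSG00000026675.13), a sterol ketone reductase, was at 20.5, 21.9 and 26.6 CPM in siCTRL and at 32.0, 32.9 and 31.6 CPM in siCOX7A2L. Its group means were 23.0 ± 3.19 and 32.1 ± 0.664 CPM (SD, n = 3 each), with no overlap, a log2 fold change of 0.49 ± 0.15 (SE, edgeR adjusted p = 0.131). Over the alternatives its adjusted p lay between 0.0612 and 0.741, and in the authors' deposited table it was 0.0518, the smallest of the 34 there. At 0.05 that table passed 808 of the 12742 genes with an adjusted p (6.34%) and 0 of the 34. Tm7sf2, another sterol reductase, was at 7.86, 7.78 and 5.74 CPM against 9.38, 10.7 and 11.7 CPM. It also had no overlap, with a log2 fold change of 0.57 ± 0.21 (SE, edgeR adjusted p = 0.195), and 10.7% of its words also occur in Vps51, at 30.0 to 48.6 CPM.

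Ebp, the isomerase that moves the double bond of the sterol ring, stood on the other side. It was at 35.5, 33.5 and 43.6 CPM against 25.5, 30.8 and 33.7 CPM, lower in each pair, though siCOX7A2L replicate 3 lay above siCTRL replicate 2 (log2 fold change -0.32 ± 0.14 SE, edgeR adjusted p = 0.267). Cyp51, the lanosterol demethylase, was at 83.6, 74.7 and 105 CPM against 84.5, 105 and 113 CPM, with a log2 fold change of 0.20. The demethylation enzymes Msmo1 and Nsdhl had 0.08 and 0.24, and Sc5d and Dhcr7, the desaturase and the reductase near the end of the route, had -0.10 and 0.10. Stard4, which carries cholesterol between membranes, was at 37.6, 37.7 and 26.3 CPM against 54.8, 38.4 and 29.5 CPM, with pairs of 0.54, 0.03 and 0.17. The groups of these 6 genes overlapped, and their edgeR adjusted p ran from 0.420 (Stard4) to 0.820 (Msmo1).

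Most genes of the fatty acid branch stayed close to the controls, with log2 fold changes between -0.25 and 0.09 for 9 of the 10. Acly, which releases acetyl-CoA from citrate, was at 266, 265 and 244 CPM in siCTRL and at 243, 286 and 239 CPM in siCOX7A2L. Acaca, acetyl-CoA carboxylase, was at 188, 189.8 and 178 CPM against 192, 204 and 143 CPM. Fasn, fatty acid synthase, was at 910.5, 962 and 801 CPM against 811, 1033 and 834 CPM, with a 95% interval of -0.27 to 0.26. For each of the 3 the groups overlapped and pair 2 was positive. Of the words of Acaca 31.7% also occur in Gm5182, at 7.77 to 11.6 CPM.

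Acss2, which makes acetyl-CoA from acetate, was the exception. It was at 9.18, 9.22 and 13.0 CPM against 13.0, 12.9 and 17.5 CPM, with pair differences of 0.50, 0.48 and 0.42. Those lay closer together than the pair differences of any other of the 34, while the groups overlapped because siCTRL replicate 3 reached the 2 lower siCOX7A2L libraries (log2 fold change 0.47 ± 0.17 SE, edgeR adjusted p = 0.181). Among the desaturases and elongases, Fads2, the first desaturase of polyunsaturated fatty acids, was at 128, 134 and 289.9 CPM against 106, 127 and 219.9 CPM. It was lower in each pair (log2 fold change -0.25 ± 0.12 SE, edgeR adjusted p = 0.320). Scd2 was at 1409, 1341 and 1894 CPM against 1379.96, 1323 and 1679 CPM, and also lower in each pair, with differences of -0.03, -0.02 and -0.17. Elovl6, which lengthens palmitate, had -0.16, with 47.2, 46.0 and 82.7 CPM against 44.2, 51.7 and 55.9 CPM. Scd1, Elovl5 and Fads1 had 0.09, 0.01 and -0.01.

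**Figure D3:**
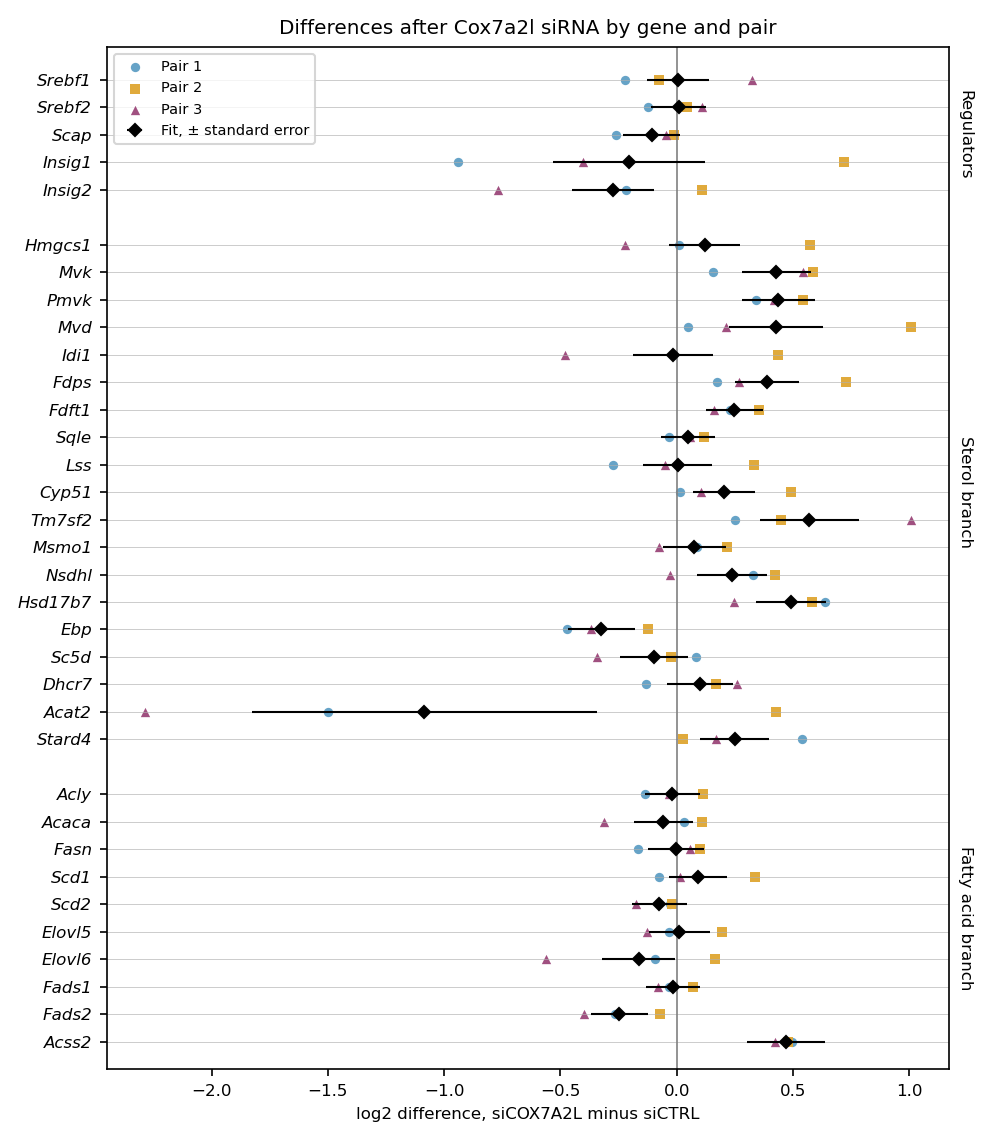
The log2 difference of siCOX7A2L from siCTRL for each of the 34 genes, as the edgeR fit with its standard error (black diamonds with bars) and for each pair of libraries with the same replicate number (coloured circles, squares and triangles). The diamonds of 15 of 19 sterol genes lie right of 0 in CPM, against 7 of 19 when TPM is used, and Acat2 and Insig1 have the widest bars. Pair values are differences of log2 CPM with a prior count of 2.

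Read by pair, 10 of the 34 genes were higher after the siRNA in all 3 pairs (29.4%), against 21.2% of all genes. They were Acss2 and 9 sterol genes, Mvk, Pmvk, Mvd, Fdps, Fdft1, Cyp51, Tm7sf2, Hsd17b7 and Stard4. Lower in all 3 pairs were 4 (11.8%), against 20.8% of all genes, namely Scap, Ebp, Scd2 and Fads2. The groups did not overlap, with siCOX7A2L higher, for 4 (11.8%), against 7.96% of all genes, and with siCOX7A2L lower for 0 members, against 7.62% of all genes.

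The pairs differed from each other. Positive differences numbered 15, 28 and 16 of 34 in pairs 1, 2 and 3, against about 50% of all genes in each. The sterol median was 0.08, 0.42 and 0.10, the fatty acid median -0.05, 0.11 and -0.10, and the regulator median -0.22, 0.04 and -0.04. All 3 medians were thus at their highest in pair 2. Sterol minus fatty acid was 0.14, 0.32 and 0.21, so the sterol branch lay above the fatty acid branch in each pair. Without pair 2 the sterol median was 0.06, with 12 of 19 genes positive, and without pair 3 it was 0.29, with 17 of 19. The direction of the fatty acid branch depended on the pairs: without pairs 1, 2 and 3 in turn its median was 0.012, -0.091 and 0.025, with 5, 1 and 6 of 10 genes positive.

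**Figure D4:**
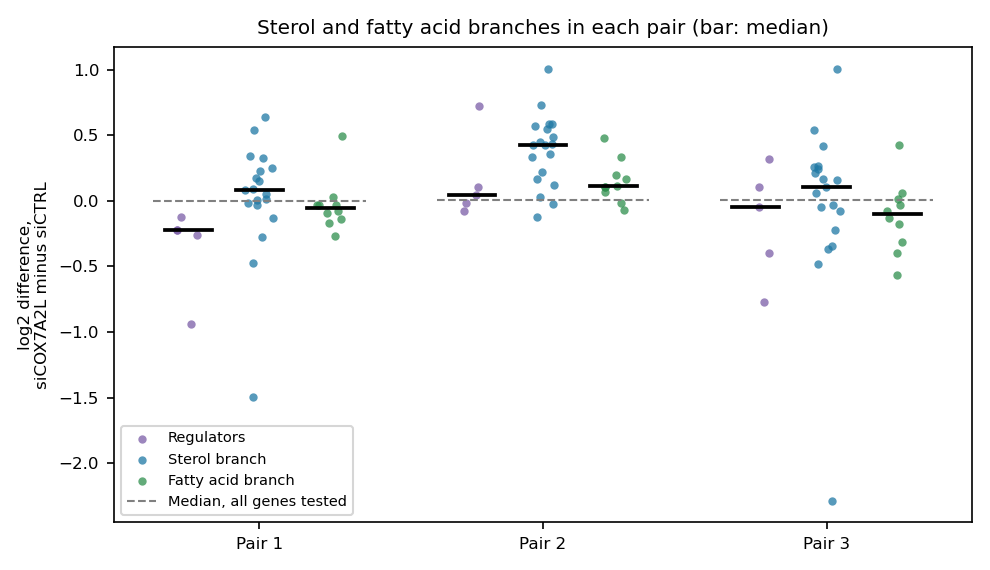
The log2 difference of siCOX7A2L from siCTRL for each gene (points) in pairs 1, 2 and 3, with the median of each branch (black bars) and of all genes tested (dashed). The sterol median is 0.08, 0.42 and 0.10 and lies above the fatty acid median in each pair. On TPM the sterol median of the fit is -0.07 against -0.22 for all genes.

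Sums over a branch follow its most abundant genes. Summed CPM of the 19 sterol genes in siCOX7A2L was 0.993, 1.32 and 0.974 times siCTRL in pairs 1, 2 and 3. For the 10 fatty acid genes the ratios were 0.945, 1.05 and 0.925, and for the 5 regulators 0.861, 1.06 and 1.06. The sterol sum was thus above the control in pair 2 only. The library siCOX7A2L replicate 2 was the highest of the 6 for 12 of the 34 genes (35.3%), against 14.0% of all genes tested, and the lowest for 1. Summed myotube markers, 8 genes of differentiation, were 2.26, 0.977 and 1.80 times siCTRL in pairs 1, 2 and 3. Pair 2, with the highest sterol ratio to siCTRL, was thus the 1 pair without more myotube message. Of 7 myotube markers tested, edgeR called 2 higher, Tnnt1 and Actc1 (adjusted p = 0.00226 and 0.0263), against 0.726% of all genes called in either direction. At an unadjusted p under 0.05 there were 5 (71.4%), against 17.7% of all genes, and the median log2 fold change was 1.14. Without the block edgeR called 2 genes in all, Cox7a2l among them, so Tnnt1 and Actc1 cannot both have passed there. Whether the myotube message bears on the lipid genes was not tested.

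Several lipid genes separated replicate 3 from replicates 1 and 2 more than the siRNA groups. In log2(CPM + 0.5), the median difference of replicate 3 from the mean of replicates 1 and 2 was 0.29 in siCTRL and 0.22 in siCOX7A2L over the 34 genes, against -0.01 and -0.02 over all genes tested. Of the 34, 18 were higher in replicate 3 of both groups (52.9%, against 35.4% of all genes). The medians were 0.47 and 0.27 for the fatty acid branch and 0.32 and 0.22 for the sterol branch. Scd1 had 1.03 and 0.92, its levels being 275, 269 and 557 CPM in siCTRL and 261, 339.9 and 562 CPM in siCOX7A2L. Pmvk had 1.01 and 0.99, and Nsdhl 1.06 and 0.65, from 20.8, 22.0 and 45.0 CPM and 26.2, 29.5 and 44.0 CPM. These are single libraries against 2 others, with no test. Myotube markers summed to 253, 241 and 1341 CPM in siCTRL and to 572, 236 and 2418 CPM in siCOX7A2L, and so were also highest in both replicate 3 libraries; their part in these differences was not tested.

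**Figure D5:**
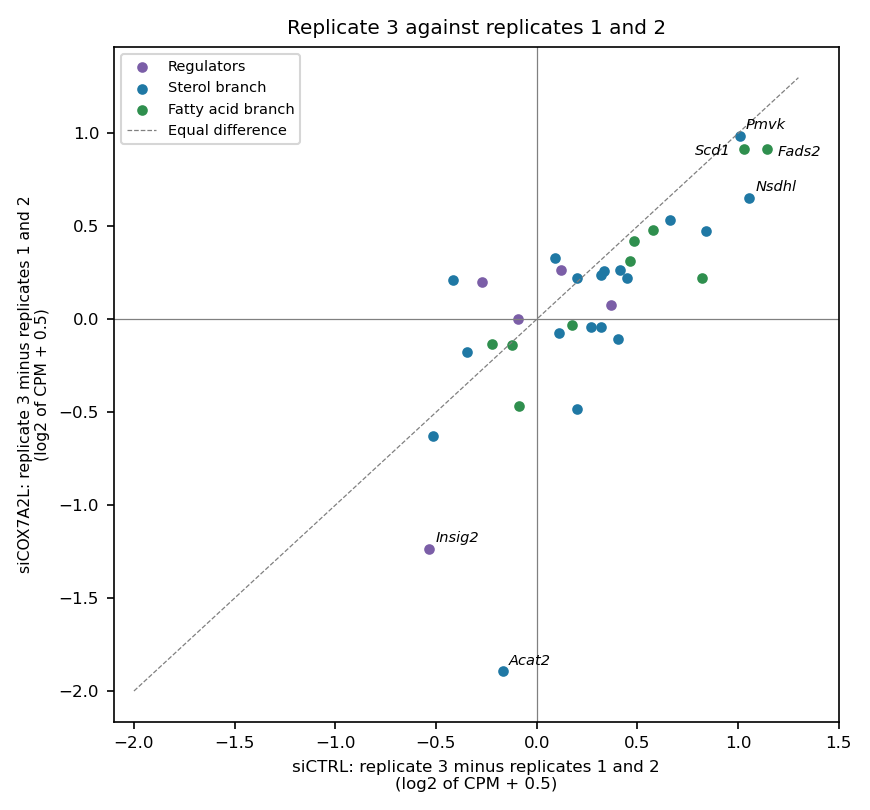
Difference of replicate 3 from the mean of replicates 1 and 2, in log2(CPM + 0.5), in siCTRL (horizontal) and siCOX7A2L (vertical) for each of the 34 genes, with a dashed line where both are equal. The upper right part, above 0 on both axes, holds 18 genes, with Pmvk, Scd1, Fads2 and Nsdhl farthest out, while Acat2 lies lowest on the vertical axis, at -1.89, against -0.17 on the horizontal one.

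Related genes outside the 34 were read from lists of the same pathways. Of 16 genes that process or turn over SREBP and its partners, 1 rose and 0 fell at the adjusted threshold, which 0.726% of all genes passed. At an unadjusted p under 0.05 there were 3 (18.8%), near the 17.7% of all genes. The gene that rose was Erlin2, a membrane protein of the endoplasmic reticulum known to bind the complex of SREBP, Scap and Insig, at 36.5, 33.6 and 27.0 CPM in siCTRL and 55.9, 52.0 and 61.2 CPM in siCOX7A2L. Its groups did not overlap, and the fit put it at 1.75 times its siCTRL level, a log2 difference of 0.81 ± 0.15 (SE, edgeR adjusted p = 0.0465). Without the block its adjusted p was 0.735. The median of that list was -0.07.

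Of 15 other genes of sterol and isoprenoid synthesis 0 were called by edgeR, with 6 at an unadjusted p under 0.05 (40%, against 17.7% of all genes) and 4 positive (26.7%, against 51.1%). Their median was -0.24, against 0.01 over all genes and 0.20 in the sterol branch. The groups did not overlap, with siCOX7A2L lower, for 5 of the 15, against 7.62% of all genes. The smallest p was that of Lbr, the lamin B receptor, which is also a sterol reductase with the activity of Tm7sf2. Lbr was at 95.7, 101 and 121 CPM against 72.9, 71.5 and 72.9 CPM, with all siCOX7A2L libraries below the controls (log2 fold change -0.54 ± 0.13 SE, edgeR adjusted p = 0.0728). Its sign was thus opposite to that of Tm7sf2, and neither passed. Of 14 genes of sterol trafficking and efflux 0 were called, with 3 at an unadjusted p under 0.05 (21.4%, near the 17.7% of all genes) and a median of 0.08. Soat1, which esterifies cholesterol for storage, had the smallest p there, with a log2 fold change of -0.35 (edgeR adjusted p = 0.163).

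Of 26 other genes of fatty acid synthesis 21 were tested and 0 called, with 5 at an unadjusted p under 0.05 (23.8%, against 17.7% of all genes) and a median of -0.04. Hacd1, a dehydratase of fatty acid elongation known from muscle, was at 17.2, 17.4 and 23.9 CPM against 30.2, 25.3 and 46.0 CPM, higher in every siCOX7A2L library than in any control, and missed the threshold (log2 fold change 0.77, edgeR adjusted p = 0.0509). Of 22 genes of glycerolipid synthesis and lipid droplets 21 were tested and 0 called, with 6 at an unadjusted p under 0.05 (28.6%, against 17.7% of all genes) and a median of -0.05. Dgat2, which makes triglyceride, was at 9.24, 7.91 and 7.19 CPM against 5.32, 3.65 and 4.15 CPM, again without overlap (log2 fold change -0.90, edgeR adjusted p = 0.0779).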

How the data were processed

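RNA from 6 libraries of C2C12 cells was analysed, 3 per group. Tools in the submitters' processing notes are Salmon 0.13.1, Trim Galore 0.6.4 and DESeq2 1.30.1, with mm39 as the build and no roles given; the annotation release is not given in the sources used here. Per the file headers and values, the authors deposited estimated counts per gene, not scaled to depth, and TPM, which is scaled to length and depth. Their deposited result table holds scaled counts (a signal), log2 fold changes and both raw and adjusted p-values. Per the file headers it also holds the authors' test statistic, a score per gene, not used here.

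Symbols were joined by gene identifier without version (97.6% of 52740 rows; GENCODE M21). Estimated counts, once rounded, went into edgeR 4.0.16 under R 4.3.3 (TMM, default filter by group, robust quasi-likelihood, replicate number as block, Benjamini-Hochberg over all genes at 0.05). The fit was checked on simulated data in which same-numbered libraries shared an effect and all genes had the same dispersion. That check cannot show whether the pairing holds here or how genes of wide spread are handled. The standard error is the size of the log2 fold change over the root of F. Pair differences are log2 CPM with a prior count of 2, which draws low genes towards 0. The design foresaw counts, hence the rounding. Promoter matches and shared 31-base words came from the reference sequences. Shared words were counted on both strands.

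Deviations from the group means correlated at 0.53, 0.45 and 0.67 between same-numbered libraries, against 0.44 and 0.43 across replicates 1 and 2. Replicate 3 correlated at -0.60 to -0.51 with replicates 1 and 2 of the other group. Same-numbered samples were treated as paired because the rule for these genes names the replicate number as block. The correlations cannot decide how replicates 1 and 2 pair, since across numbers they are nearly as high, so pairs 1 and 2 are uncertain as pairs. Depth, from 9890218 to 17077826 estimated counts, limits the low genes most in siCOX7A2L replicate 3. Alternatives were DESeq2 1.42.0, limma 3.58.1 on log2(TPM + 0.5) and log2(TPM + 0.1), other scalings and filters, other handling of replicates, and leaving out each pair. The members and lists were chosen with earlier results of these data known. Named genes were Cox7a2l, the 34 members, the called members of each related list (or that with the smallest p) and 7 marker genes. Cebpa, Pparg, Tnnt1 and Actc1, and genes that share sequence with members, were named after their values were seen.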

Additional observations from a re-analysis of the deposited data

How the results depend on the processing

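The count of genes called over the whole table was 109 with the replicate block and 2 with no replicate block. It was 197 with a term for replicate 3, 495 by DESeq2 with the block, 58 with library size alone, 1257 with no expression filter, 5 and 3 by limma on TPM with 0.5 and 0.1 added, and 51 to 1210 when a pair was left out. No member was called with or without the block, nor under the other alternatives, except without replicate 2, where Insig1 and Acat2 passed, so that 0 to 2 members were called when a pair was left out. Those fits have 1 residual degree of freedom per gene. Dropping the block changed no call among the members, while Erlin2 and Dcn, called with it, had edgeR adjusted p = 0.735 and 0.822. Tnnt1 and Actc1, also called with the block, cannot both have passed without it. The 2 genes called there included Cox7a2l (edgeR adjusted p = 0.0122).

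Of the branch medians, that of the regulators was -0.46 and -0.47 on TPM with 0.5 and 0.1 added and -0.16 to 0.073 when a pair was left out. On TPM the sterol median was -0.067 and -0.066 and the fatty acid median -0.26 and -0.26, where all genes had medians of -0.22 and -0.24. Relative to all genes the sterol median was positive under each of the 12 alternatives, from 0.05 without replicate 2 to 0.29 without replicate 3.

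Of 408 alternative values of single members, 354 kept their direction and side of the threshold, 52 changed sign and 2 newly passed. None of those that changed sign had passed. Signs are read against 0, while the median of all genes was itself -0.22 and -0.24 on TPM with 0.5 and 0.1 added. With library size alone that median was -0.036. The sign turned with no block for Fasn 0.0019, with the term for replicate 3 for Fasn 0.0041, with at least 5 CPM for Fasn 0.00083, with DESeq2 for Srebf1 -0.0013 and Lss -0.0042, with no filter for Srebf1 -0.0033, Srebf2 -0.0011 and Lss -0.0064, and with library size alone for Srebf1 -0.039, Srebf2 -0.037, Lss -0.042 and Elovl5 -0.033. On TPM with 0.5 added it turned for Srebf1 -0.36, Srebf2 -0.16, Hmgcs1 -0.20, Fdft1 -0.029, Sqle -0.22, Lss -0.067, Cyp51 -0.15, Msmo1 -0.11, Nsdhl -0.013, Dhcr7 -0.36, Scd1 -0.0047 and Elovl5 -0.18. With 0.1 added it turned for Srebf1 -0.36, Srebf2 -0.16, Hmgcs1 -0.20, Fdft1 -0.029, Sqle -0.22, Lss -0.066, Cyp51 -0.15, Msmo1 -0.11, Nsdhl -0.010, Dhcr7 -0.37, Scd1 -0.0047 and Elovl5 -0.18. When a pair was left out the ranges that crossed 0 were Srebf1 -0.15 to 0.12, Srebf2 -0.043 to 0.073, Insig1 -0.68 to 0.16, Hmgcs1 -0.12 to 0.29, Idi1 -0.25 to 0.21, Lss -0.17 to 0.14, Msmo1 -0.0044 to 0.15, Sc5d -0.19 to 0.025, Acly -0.093 to 0.038, Acaca -0.15 to 0.066, Fasn -0.064 to 0.077, Scd1 -0.039 to 0.17, Elovl5 -0.090 to 0.078, Elovl6 -0.34 to 0.034 and Fads1 -0.066 to 0.016.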
